A study of Schizosaccharomyces pombe with 6 samples.

Results

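The *S. pombe* reference ASM294v3 annotates 72 genes of biotype snRNA or snoRNA on chromosomes I to III, among 12606 genes of all kinds, and this set was taken whole, with no measured value used to choose it. It holds 6 genes of biotype snRNA and 66 of biotype snoRNA. ChIP-seq had been performed in the strain Hap2-GFP Arp5-3HA, which carries a GFP tag at the C-terminus of Hap2, placed at its own locus, and an HA tag on Arp5 in the same cells and was grown in rich medium (YES). Hap2 was immunoprecipitated with anti-GFP and Arp5 with anti-HA, in 2 replicates each, and 1 peak list was deposited per ChIP sample. All 4 lists therefore share the genotype and the medium and differ by the protein precipitated. The 2 input samples of the series, and any untagged control, were not analysed here.

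Arp5 is an actin-related subunit of the Ino80 complex, an ATP-dependent remodeler that slides and spaces nucleosomes, and Hap2 is a small auxiliary subunit of the same complex. Spliceosomal snRNAs pair with introns and with each other during splicing, while snoRNAs guide chemical modification of ribosomal RNA: box C/D snoRNAs direct methylation of ribose and box H/ACA snoRNAs direct pseudouridylation. A few snoRNAs, among them U3, U14 and snR30, are known for their part in cleavage of the ribosomal RNA precursor. In their mature form these RNAs are typically short, stable and abundant, and U6 is the spliceosomal snRNA made by RNA polymerase III rather than RNA polymerase II.

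The genes fell into 3 arrangements. There were 38 independent genes, with no other snRNA or snoRNA gene within 500 bp on the same strand, 13 intronic genes, each wholly inside an intron of another gene on the same strand, and 21 clustered genes. The 5 spliceosomal snRNA genes (*snu1*, *snu2*, *snu4*, *snu5* and *snu6*) and both U3 genes (*snu3* and *snu32*) were independent. By annotation or by boxes in the sequence, 30 snoRNA genes were classed as box C/D, 21 as box H/ACA and 6 as neither, and 7 were annotated as primary transcripts that overlap the snoRNA they yield. The label fits the annotation with 1 exception: *snR48* has the biotype snRNA but lies in an intron of *rps3*, a ribosomal protein gene, and is no spliceosomal snRNA. Annotated lengths ran from 47 to 1152 bp with a median of 123.5 bp, so a gene is shorter than most peaks and than the 200 to 400 bp fragments of the sonicated chromatin.

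The sequences of a few members are shown because the results turn on where their boxes and ends lie. They were read from the RefSeq copy of ASM294v3, 5′ to 3′ on the strand of the gene. In the box C/D gene *snoU14* (chrII:1308634-1308745, plus strand), which encodes U14, and in *sno52* (chrI:339548-339642, minus strand), the capitals mark the C box (TGATGA) and the D box (CTGA). In the box H/ACA gene *sno12* (chrIII:583416-583605, plus strand), they mark the ACA that stands 3 bases from the 3′ end.
snoU14: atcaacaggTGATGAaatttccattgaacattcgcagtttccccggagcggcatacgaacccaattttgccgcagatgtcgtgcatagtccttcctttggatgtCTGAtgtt
sno52: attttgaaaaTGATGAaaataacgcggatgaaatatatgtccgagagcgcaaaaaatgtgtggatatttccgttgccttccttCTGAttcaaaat
sno12: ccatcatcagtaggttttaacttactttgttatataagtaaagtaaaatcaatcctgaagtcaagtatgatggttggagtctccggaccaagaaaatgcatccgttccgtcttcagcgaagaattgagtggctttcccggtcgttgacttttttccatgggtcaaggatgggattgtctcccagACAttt

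The U3 genes were compared because their annotated starts do not match. The 255 bases of *snu32* align with 91.4% identity (234 of 256 aligned columns) to *snu3*, but from 122 bases before the annotated start of *snu3* to base 133 after it, and 122 annotated bases of *snu3* lie past the alignment. The longest run shared without a mismatch is the first 90 bases of *snu32*. Capitals mark this run in the stretch from *snu3* (chrI:987818-987957, minus strand), where it begins 122 bases before the annotated start, and in the stretch from *snu32* (chrII:3958957-3959086, minus strand), where it begins at the first base.
snu3 shared stretch: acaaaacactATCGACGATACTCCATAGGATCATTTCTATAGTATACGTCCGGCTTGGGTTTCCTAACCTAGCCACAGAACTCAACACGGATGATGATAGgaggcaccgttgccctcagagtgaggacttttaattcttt
snu32 shared stretch: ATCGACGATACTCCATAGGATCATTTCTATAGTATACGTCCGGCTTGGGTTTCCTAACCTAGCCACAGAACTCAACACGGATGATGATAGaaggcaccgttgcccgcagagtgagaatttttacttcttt
Distances at *snu3* are thus given from a start that lies 122 bases inside the sequence that corresponds to *snu32*. The 2 genes could also share reads, and how such reads were treated is not given in the sources used here. Every other pair of members with at least 90% identity over the shorter gene (9 pairs) consisted of a primary transcript and a snoRNA with overlapping annotations.

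The 4 lists held 3758 and 4259 Hap2 peaks and 4206 and 4277 Arp5 peaks on chromosomes I to III, and peaks covered 10.9 to 12.0% of these chromosomes. The lists give no read counts, so depth is unknown, and the authors' score was used only as a percentile within its list. Lists that share a replicate number, but not a protein, had more summits in common than replicates of the same protein. Among peaks of Hap2 replicate 1 that overlapped a peak of Arp5 replicate 1, 41.7% (868 of 2081) had a summit within 10 bp of it, and between the lists with number 2 the share was 39.8% (950 of 2386). The replicates of Hap2 gave 11.8%, the replicates of Arp5 9.55%, and the other pairs 9.77 and 9.28%. At the snRNA and snoRNA genes the shares for equal numbers were 40.5% (15 of 37) and 30.6% (11 of 36), against 10.5 to 21.6% for the other 4 pairs. What the same-numbered lists have in common, such as a culture or an input, was not tested, and the Hap2 and Arp5 lists are not treated below as independent of each other.

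**Figure D1:**
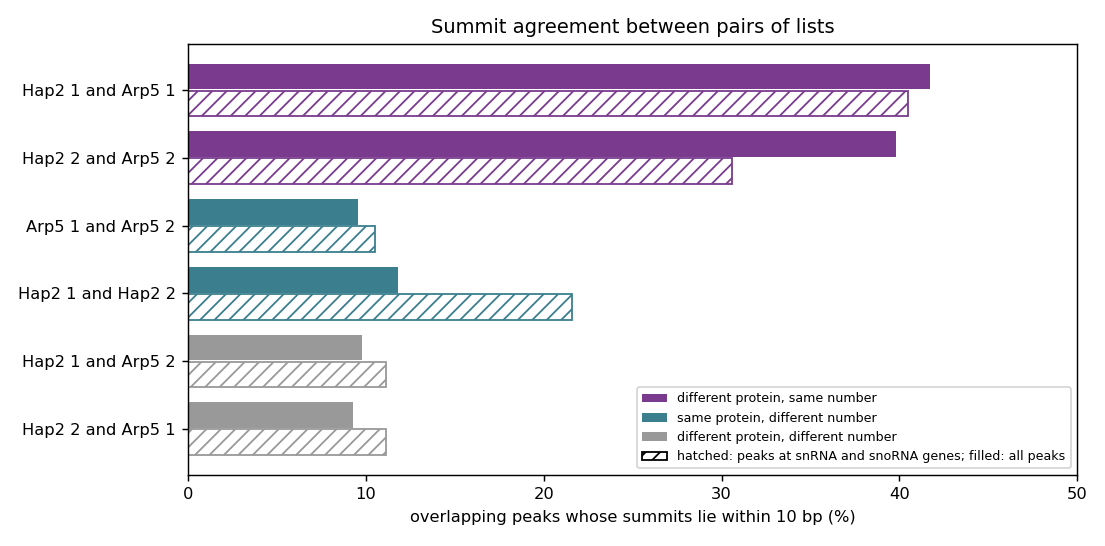
Share of overlapping peaks (x axis, percent) whose summits lie within 10 bp, for each pair of lists, over all peaks (filled bars) and over peaks at snRNA and snoRNA genes (hatched bars). Pairs with the same replicate number and different proteins reach 41.7 and 39.8% over all peaks, and all other pairs lie between 9.28 and 11.8%.

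The first question was how many of these genes carry a peak at the start, taken from 500 bp upstream to 100 bp downstream of it. Hap2 replicate 1 had a peak there at 41 of the 72 genes and replicate 2 at 43, where 27.3 and 29.4% of all genes had one. Arp5 replicate 1 had a peak at 40 and replicate 2 at 39, where all genes gave 20.8 and 21.2%. A Hap2 peak was present in both replicates at 32 genes (44.4%), against 20.9% of all genes, and an Arp5 peak at 30 genes (41.7%), against 14.0%. All 4 lists had a peak at 24 genes (33.3%), against 9.74% of all genes. The shares of these genes were therefore about as high for Arp5 as for Hap2, whereas among the 5113 protein-coding genes 18.6% had a Hap2 peak in both lists and 5.73% an Arp5 peak in both lists at the start. Near-equal shares were not particular to these genes, since the 7133 long noncoding RNA genes had 19.9 and 17.7%. The 171 tRNA genes, which are also short and highly transcribed, had 97.1 and 76.6%. The proteins were not tested against each other, because 0.333 is the smallest p an exact two-sided permutation test can reach when each has 2 lists.

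Over the gene itself, Hap2 peaks overlapped 39 genes in each replicate, against 34.1 and 37.8% of all genes, and Arp5 peaks overlapped 42 and 37, against 35.6 and 36.6%. Both replicates had a Hap2 peak over 32 genes (44.4%; all genes 26.7%) and an Arp5 peak over 31 (43.1%; all genes 26.8%). Longer genes offer more room for an overlap, and the snRNA and snoRNA genes are short, so these shares are not matched for length. With the start base alone, which gives every gene the same room, both Hap2 lists covered 21 of the 72 genes (29.2%), against 9.58% of all genes, and both Arp5 lists covered 19 (26.4%), against 5.23%. There was no peak in any list, at the start or over the gene, at 12 genes (16.7%), against 33.6% of all genes.

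A side of the genes that the start window leaves out held more peaks than the start. In the 500 bp past the annotated 3′ end, a place chosen after the coverage around the starts was seen, all 4 lists had a peak at 46 of the 72 genes (63.9%), against 10.2% of all genes. In the 500 bp before the start, all 4 lists had a peak at 22 (30.6%), against 8.85%. Hap2 replicate 1 had a peak past the end at 57 genes and replicate 2 at 58, where 25.3 and 27.8% of all genes had one. Arp5 replicate 1 had a peak there at 53 and replicate 2 at 59, where all genes gave 20.9 and 21.5%. Gene by gene, 41 members had peaks in more lists past the end than before the start, 6 had fewer and 25 had the same number. This count was not made over all genes, and clustered members that share a peak are counted separately in it. Protein-coding genes had a peak past the end in all 4 lists at 12.6%, long noncoding RNA genes at 6.43% and tRNA genes at 66.1%.

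**Figure D2:**
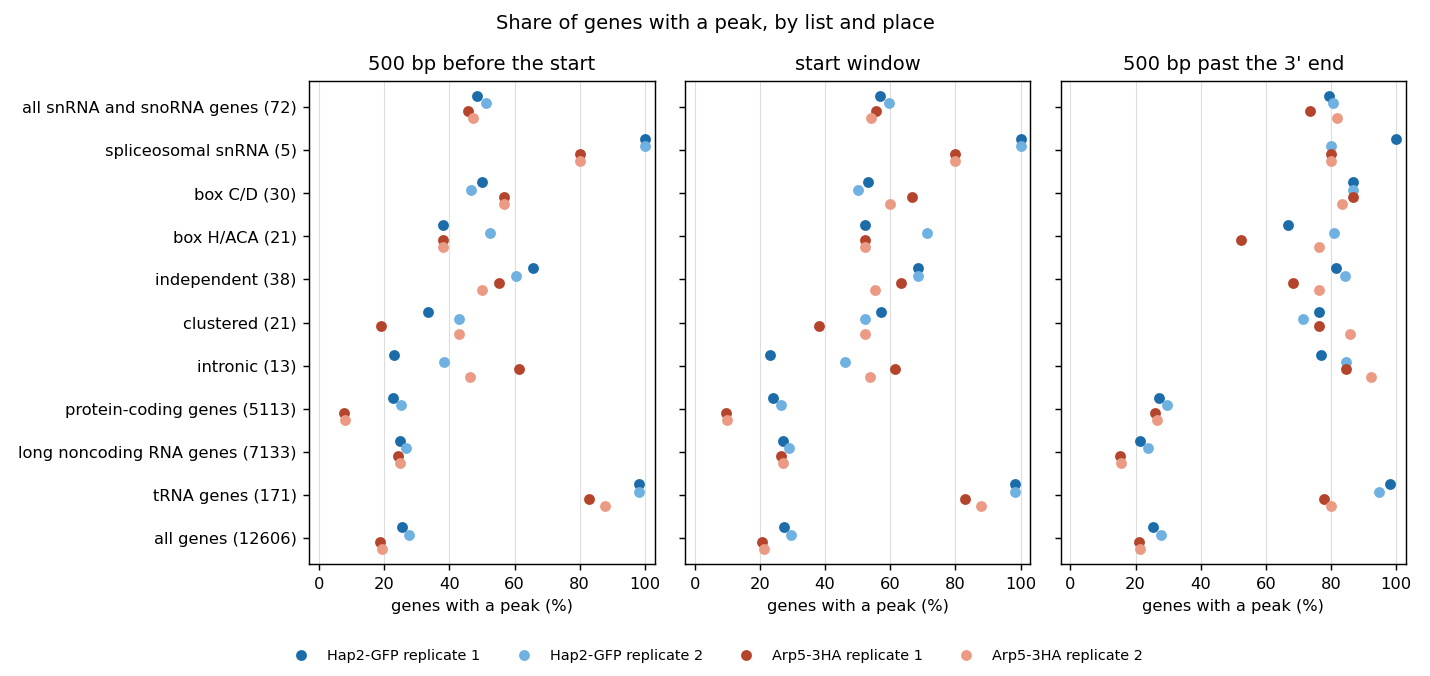
Share of genes with a peak (x axis, percent) in each list (coloured points), in the 500 bp before the start, in the start window and in the 500 bp past the 3′ end, for classes of snRNA and snoRNA genes and for other gene types (number of genes in parentheses). Over all 72 genes the points lie between 45.8 and 51.4% before the start and between 73.6 and 81.9% past the end, while over all 12606 genes they lie, in those places, between 18.7 and 27.8%.

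Peak coverage by distance showed the same shape in every list. Among the 38 independent genes, 16 to 23 were covered by a peak at the start base, depending on the list. The most were covered 360 to 580 bp downstream of the start, at 25 to 28 of the 38 genes, and 1000 bp upstream the number was 4 to 6. Over all genes, the highest coverage at any distance within 1500 bp was 12.9 to 15.3%. Where an independent gene had peaks both in the start window and past the end, these were the same peak in 21 of 25 cases in Hap2 replicate 1, 18 of 23 in Hap2 replicate 2, 18 of 19 in Arp5 replicate 1 and 14 of 17 in Arp5 replicate 2. In these cases a single peak ran from the start region over the short gene and beyond it. Summits did not all lie past the 3′ end, although the peaks reached there. Of the independent genes with a peak within 500 bp on either side, the highest peak had its summit past the end at 18 of 32, 23 of 35, 13 of 31 and 24 of 33 genes, in the same order of lists. A protein-coding gene lay within 500 bp past the end of 28 independent genes, and 17 of these (60.7%) had a peak there in all 4 lists. Of the 10 with no coding gene that close, 7 (70.0%) did.

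**Figure D3:**
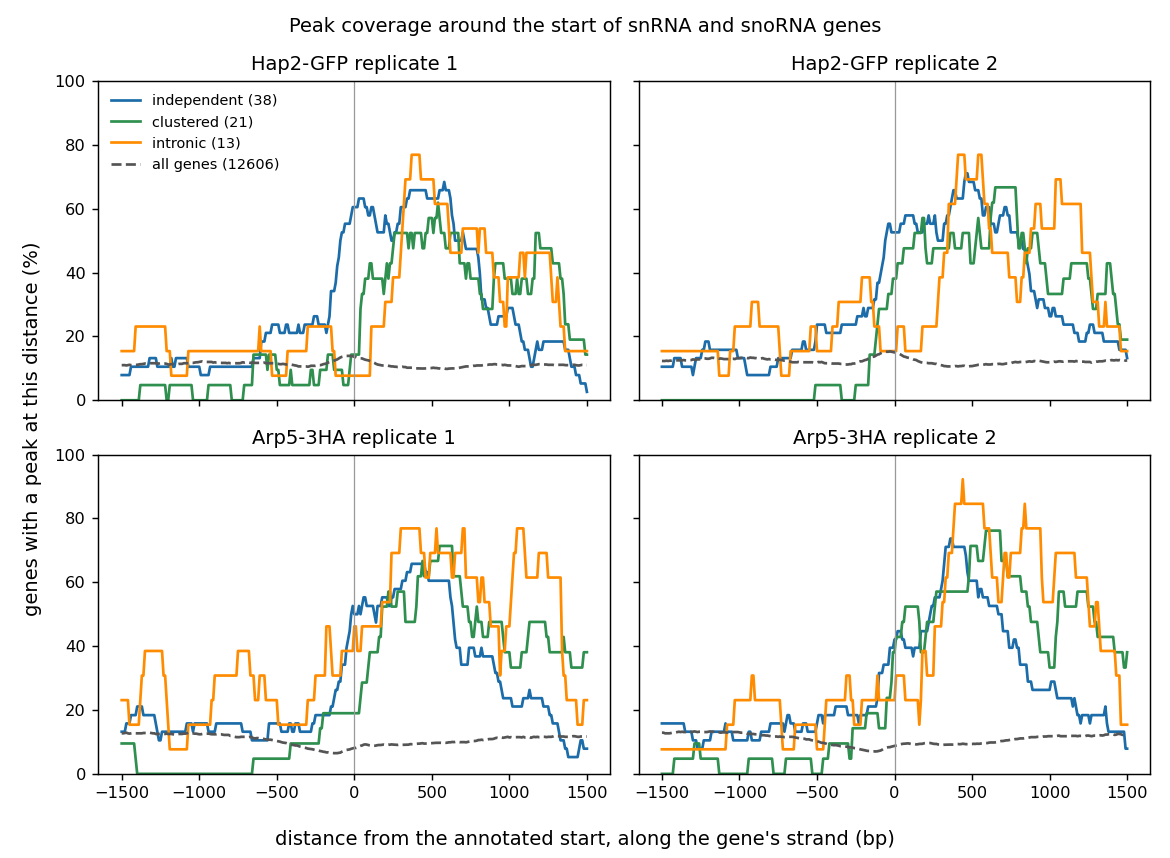
Share of genes covered by a peak (y axis, percent) at each distance from the annotated start (x axis, bp, along the strand of the gene), for independent, clustered and intronic snRNA and snoRNA genes and for all genes (dashed), 1 panel per list. Independent genes rise from 10.5 to 15.8% at 1000 bp upstream to a maximum of 65.8 to 73.7% at 360 to 580 bp downstream, while the line of all genes reaches 12.9 to 15.3%.

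Among the spliceosomal snRNA genes, all 5 had a Hap2 peak at the start in both replicates, and 3 had an Arp5 peak in both. *snu2* (chrI:959370-959556), the U2 gene, had peaks of 970 and 1180 bp in the Hap2 lists and 880 and 910 bp in the Arp5 lists. Their summits lay 210 bp past the start in both lists with number 1 and 10 bp past it in both lists with number 2. Their scores were at percentiles 93.7 and 96.8 for Hap2 and 97.9 and 95.5 for Arp5, so the U2 gene was near the top of every list. The start of the coding gene *seb1* also lies in its window.

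*snu4* (chrII:467489-467615), the U4 gene, had peaks of 740 and 1780 bp at percentiles 86.8 and 83.6 for Hap2, and of 670 and 640 bp at percentiles 81.5 and 94.8 for Arp5. These peaks began 55 to 155 bp before its start. *snu5* (chrII:3236867-3236986), the U5 gene, had peaks of 790, 680 and 700 bp at percentiles 96.1, 80.6 and 96.4 in Hap2 replicates 1 and 2 and Arp5 replicate 1. In the start window Arp5 replicate 2 had only a peak of 150 bp, at percentile 6.87, and a second peak, of 440 bp at percentile 57.6, began 5 bp past the 3′ end. The single peak of Arp5 replicate 1 spanned the place of both.

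*snu1* (chrII:3020205-3020353), the U1 gene, had Hap2 peaks of 890 and 1050 bp at percentiles 78.8 and 87.9 and an Arp5 peak of 300 bp at percentile 77.0 in replicate 1. In Arp5 replicate 2 its nearest peak, of 150 bp, began 316 bp downstream of the start, which is past the end of the gene. Both proteins were thus present at its start in the lists with number 1 and Hap2 alone in those with number 2.

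*snu6* (chrI:2562276-2562419), the U6 gene, had the shortest peaks of the 5 in the Hap2 lists, 300 and 340 bp, with summits 17 and 27 bp before the start and percentiles 94.3 and 98.2. In Arp5 replicate 2 its peak was 170 bp long, with the summit again 27 bp before the start, at percentile 96.2. In Arp5 replicate 1 there was none, and the nearest peak was 4202 bp away. It differed from the other 4 in that its peaks ended at most 5 bp past the 3′ end, while at *snu1*, *snu2*, *snu4* and *snu5* all 4 lists had a peak in the 500 bp past it. In *S. pombe* the U6 gene has an intron, here of 50 bp (bases 47 to 96 of the gene), and a B box, the internal promoter element of RNA polymerase III genes, is known to lie in it. The motif GTTCGANNC was found there from base 69, and is in capitals in the gene.
snu6: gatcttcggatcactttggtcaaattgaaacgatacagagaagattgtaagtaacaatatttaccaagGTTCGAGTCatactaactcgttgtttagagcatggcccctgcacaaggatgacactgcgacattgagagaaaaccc

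Both U3 genes had a peak in all 4 lists at the start, over the gene and past the end. At *snu32* (chrII:3958832-3959086) the peaks were 1360 and 960 bp long for Hap2 and 930 and 890 bp for Arp5, at percentiles 95.7, 95.9, 97.7 and 97.0. At *snu3* (chrI:987570-987825) the highest peak in the window was 950 and 370 bp long for Hap2 and 800 and 590 bp for Arp5, at percentiles 90.6, 91.1, 97.1 and 94.2. The peaks at *snu32* began 34 to 324 bp before its start. At *snu3* they began 135 to 245 bp before the annotated start, so they too began before the base that matches the start of *snu32*.

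Of the other members, those with the highest scores in all 4 lists were led by *sno52*, *snoR69b* and *snoU14*. *sno52* (chrI:339548-339642), box C/D, lay under long peaks at percentiles 98.9, 97.6, 99.8 and 99.1, of 3660 and 1790 bp for Hap2 and 3260 and 3700 bp for Arp5. These peaks reached over neighbouring coding genes, *taf9* among them, which overlaps *sno52*, and every summit lay in a coding gene, so the gene cannot be told apart from its neighbours as the place of the signal. At *snoU14* the peaks were 2220, 2160, 2170 and 2150 bp long, at percentiles 99.1, 95.6, 99.8 and 99.5, and their summits lay from 118 bp before to 12 bp after its start. No summit at *snoU14* lay in a coding gene.

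*snoZ16* (chrI:1234963-1235045), box C/D, had peaks of 1160, 1120, 900 and 1130 bp at percentiles 87.6, 92.4, 98.3 and 95.2, and its window also holds part of *mrp1*, which encodes the RNA of RNase MRP. *snR93* (chrII:3172781-3172923), box H/ACA, had peaks of 1370, 990, 1180 and 1050 bp at percentiles 97.0, 87.9, 99.6 and 96.7, and its window holds the start of the ribosomal protein gene *rpl29*. *snR30* (chrI:3394875-3395200), box H/ACA, had peaks of 1120 to 1270 bp at percentiles 85.6 to 90.5 in all 4 lists. Their summits lay 501 to 761 bp past its start, beyond its 326 bp, and inside a coding gene. snR30 is also known as U17. *snR33* (chrII:2447904-2448048), also box H/ACA, had its highest peaks at percentiles 77.0 to 94.2, and every summit lay in a coding gene.

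The other members with a start peak in all 4 lists had lower or less even scores. *snR88*, box C/D, had peaks of 760 and 1030 bp for Hap2 and of 720 and 1110 bp for Arp5, at percentiles 75.5, 90.7, 95.0 and 90.2. *sno12*, whose sequence is given above, had peaks of 730, 770, 570 and 610 bp at percentiles 86.0, 84.7, 91.4 and 69.7. Its summits lay 440 bp past the start in both lists with number 1 and 520 and 500 bp past it in those with number 2, beyond the 190 bp of the gene. *sno16*, of no assigned box, had peaks of 480 to 1040 bp at percentiles 72.2 to 84.8. *snR92*, box H/ACA, was present in all lists with short peaks of 150 to 270 bp at percentiles from 6.87 to 54.1, so presence alone does not put it beside *snu2* or *snoU14*. *snR10*, box H/ACA, scored low for Hap2, at percentiles 41.1 and 31.5, and higher for Arp5, at 81.5 and 88.1. With *snR5* and *snoR69b*, *snR10* was 1 of the 3 genes with a start peak in all 4 lists that did not have a peak past the end in all 4.

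The lists disagreed at many members. A start peak was present in 1 list at 15 genes, in 2 lists at 8 and in 3 lists at 12. *snR90*, box H/ACA, had Arp5 peaks of 1950 and 2210 bp, at percentiles 95.8 and 97.4, that reached its start window. Its long Hap2 peaks, of 1560 bp at percentile 84.1 in replicate 1 and of 1180 bp at percentile 78.1 in replicate 2, lay over the gene and past its end but began downstream of that window, where Hap2 had only a peak of 210 bp in replicate 2. *snR40* had a start peak in Hap2 replicate 1 and Arp5 replicate 2, and *snR96* in the other two. In all, 25 genes, *snR40* and *snR90* among them, lacked a start peak in at least 1 list but had a peak past the end in all 4.

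*snoR69b* (chrI:4154912-4155002), box C/D, stood with *snu6* in the form of its peaks. They were 330 and 490 bp long for Hap2 and 290 and 270 bp for Arp5, at percentiles 95.9, 95.9, 98.4 and 96.2. All 4 summits lay 86 to 96 bp before the start, and 3 of the 4 peaks ended 38 to 68 bp after the start, inside the gene. By comparison, distinct peaks at independent members had median lengths of 620 and 680 bp in the Hap2 lists and 710 and 670 bp in the Arp5 lists. Peaks at tRNA genes had median lengths of 290 bp in both Hap2 lists and 200 and 210 bp in the Arp5 lists, at median percentiles 91.2, 89.6, 87.5 and 86.9. No test of these lengths was made. The motif GTTCGANNC occurs 16 bases before the start of *snoR69b* and 55 bases before that of *snoZ16*, and it is in capitals in the 120 bases upstream of each (chrI:4154792-4154911, plus strand, and chrI:1234843-1234962, plus strand).
snoR69b upstream: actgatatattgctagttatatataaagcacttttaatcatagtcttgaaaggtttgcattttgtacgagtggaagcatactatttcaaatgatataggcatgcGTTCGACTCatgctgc
snoZ16 upstream: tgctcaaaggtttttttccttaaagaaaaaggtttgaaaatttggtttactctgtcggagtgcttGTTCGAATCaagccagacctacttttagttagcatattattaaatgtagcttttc
On either strand, this motif was found in the stretch from 250 bp before to 50 bp after the start of 3 of the 72 genes (4.17%; the other was the intronic *snoR38*), against 1.55% of all genes. This stretch ends before the box of *snu6*, and only 2 of 171 tRNA genes (1.17%) have the motif in it. These shares therefore leave out boxes further inside a gene. A match is a description of the letters and no evidence of a functional element. The polymerase that transcribes *snoR69b* is not given in the sources used here.

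**Figure D4:**
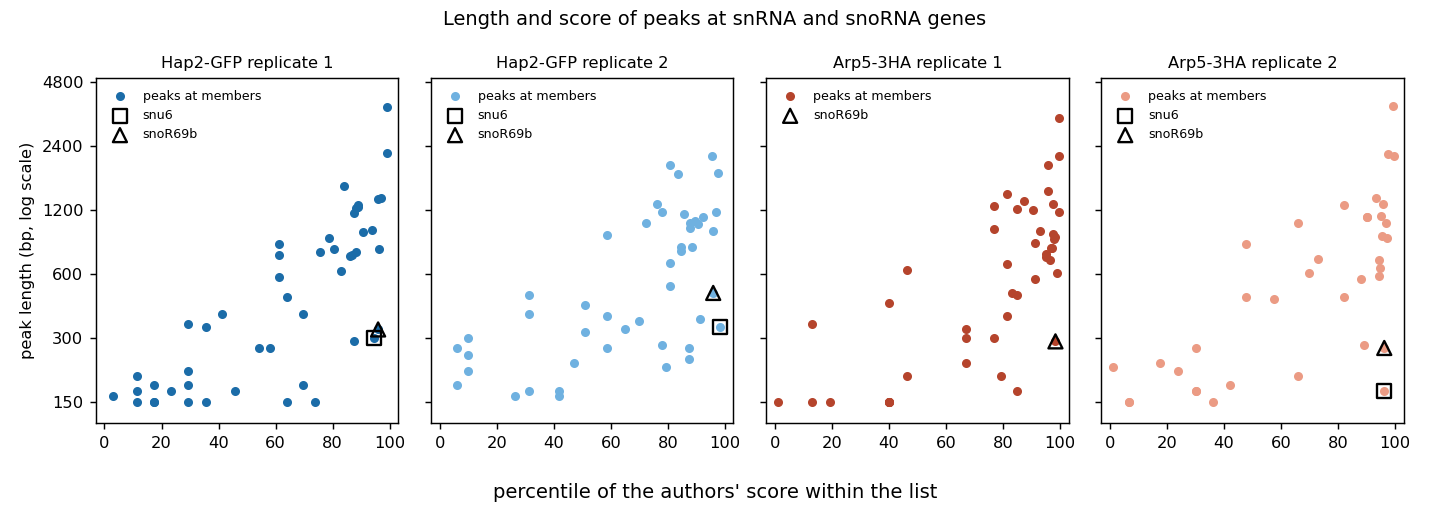
Length (y axis, bp, log scale) and percentile of the authors' score within the list (x axis) for each distinct peak in the start window of, or over, an snRNA or snoRNA gene, 1 panel per list, with the peaks of *snu6* (square) and *snoR69b* (triangle) marked. At percentiles above 90 most peaks are longer than 500 bp, while those of *snu6* and *snoR69b* are 170 to 490 bp long.

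Independent, clustered and intronic genes were then compared. Of the 38 independent genes, 26 had a start peak in each Hap2 list, 24 in Arp5 replicate 1 and 21 in replicate 2, and 18 (47.4%) had a peak in all 4. Of the 13 intronic genes, the numbers were 3 and 6 for Hap2, 8 and 7 for Arp5, and 3 (23.1%) for all 4. Of the 21 clustered genes they were 12 and 11, 8 and 11, and 3 (14.3%). Over all genes the shares were 27.3 and 29.4% for Hap2, 20.8 and 21.2% for Arp5, and 9.74% for all 4. In Hap2 replicate 1 the intronic genes, at 23.1%, were below the share of all genes. Past the end the arrangements lay closer together, with all 4 lists at 24 independent (63.2%), 9 intronic (69.2%) and 13 clustered genes (61.9%). Of all genes, 10.2% had a peak there in all 4 lists. Without the independent genes that overlap a coding gene or have a coding start in the window, 14 of 25 (56.0%) had a start peak in all 4 lists.

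Intronic genes cannot be told apart from their hosts in these lists. Arp5 peaks overlapped 13 of the 13 host genes in replicate 1 and 12 in replicate 2, and Hap2 peaks 7 and 10. Over the 5113 protein-coding genes the shares were 48.5 and 49.6% for Arp5 and 39.9 and 44.4% for Hap2, so Arp5 peaks were the more frequent over coding genes in general. The highest intronic member, *snoU24b* (chrI:2440336-2440418), lies in *cpc2*, which encodes a ribosome-associated protein, and had peaks of 610 to 1370 bp at percentiles 76.2 to 99.0, every summit in a coding gene. *snR48* had no peak at its start or over it, but all 4 lists had a peak of 1140 to 1280 bp, at percentiles 92.7 to 98.6, beginning 101 to 241 bp past its end, where *rps3* is annotated. *snoZ15*, in *pfd1*, had no peak at its start or over it in any list.

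The snoZ genes (*snoZ8*, *snoZ7*, *snoZ5*, *snoZ4* and *snoZ3*, chrI:526726-527713, all box C/D) stand in a row on the plus strand. *snoZ8*, the first, had no peak at its start or over it. *snoZ4* and *snoZ3*, the last 2, shared a peak of 760 and 810 bp for Hap2 (percentiles 88.3 and 88.5) and of 1480 and 1280 bp for Arp5 (percentile 95.8 in each), so their peaks are not independent, although they are counted as 2 genes. In Arp5 replicate 1 that peak also ran over *snoZ7* and *snoZ5*. A second cluster, the primary transcript *SPNCRNA.723* with *snR41*, *snR70* and *snR51b*, showed a like order. *snR41* had no peak at its start or over it, *snR70* lacked Hap2 replicate 2, and *snR51b* had all 4 lists. In each list the highest peak at *snR51b* had its summit 440 to 520 bp past its start, in a coding gene, unlike at *snoZ4* and *snoZ3*. The remaining clustered genes were 6 primary transcripts and their snoRNAs, of which none had a start peak in all 4 lists.

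By box, 16 and 15 of the 30 box C/D genes had a start peak in the Hap2 lists and 20 and 18 in the Arp5 lists. Of the 21 box H/ACA genes, 11 and 15 had 1 in the Hap2 lists and 11 in each Arp5 list. Over all genes these shares were 27.3 and 29.4% for Hap2 and 20.8 and 21.2% for Arp5. Intronic genes that were assigned a box class were all box C/D, and 2 intronic snoRNA genes were left without one. The classes were therefore also compared among independent genes alone. There, 5 of 10 box C/D genes and 7 of 17 box H/ACA genes had a start peak in all 4 lists, against 9.74% of all genes. GC content had a median of 38.3% (range 28.4 to 46.4%) over the 24 genes with a start peak in all lists and of 35.4% (24.4 to 38.5%) over the 12 with no peak, so the ranges overlap.

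**Figure D5:**
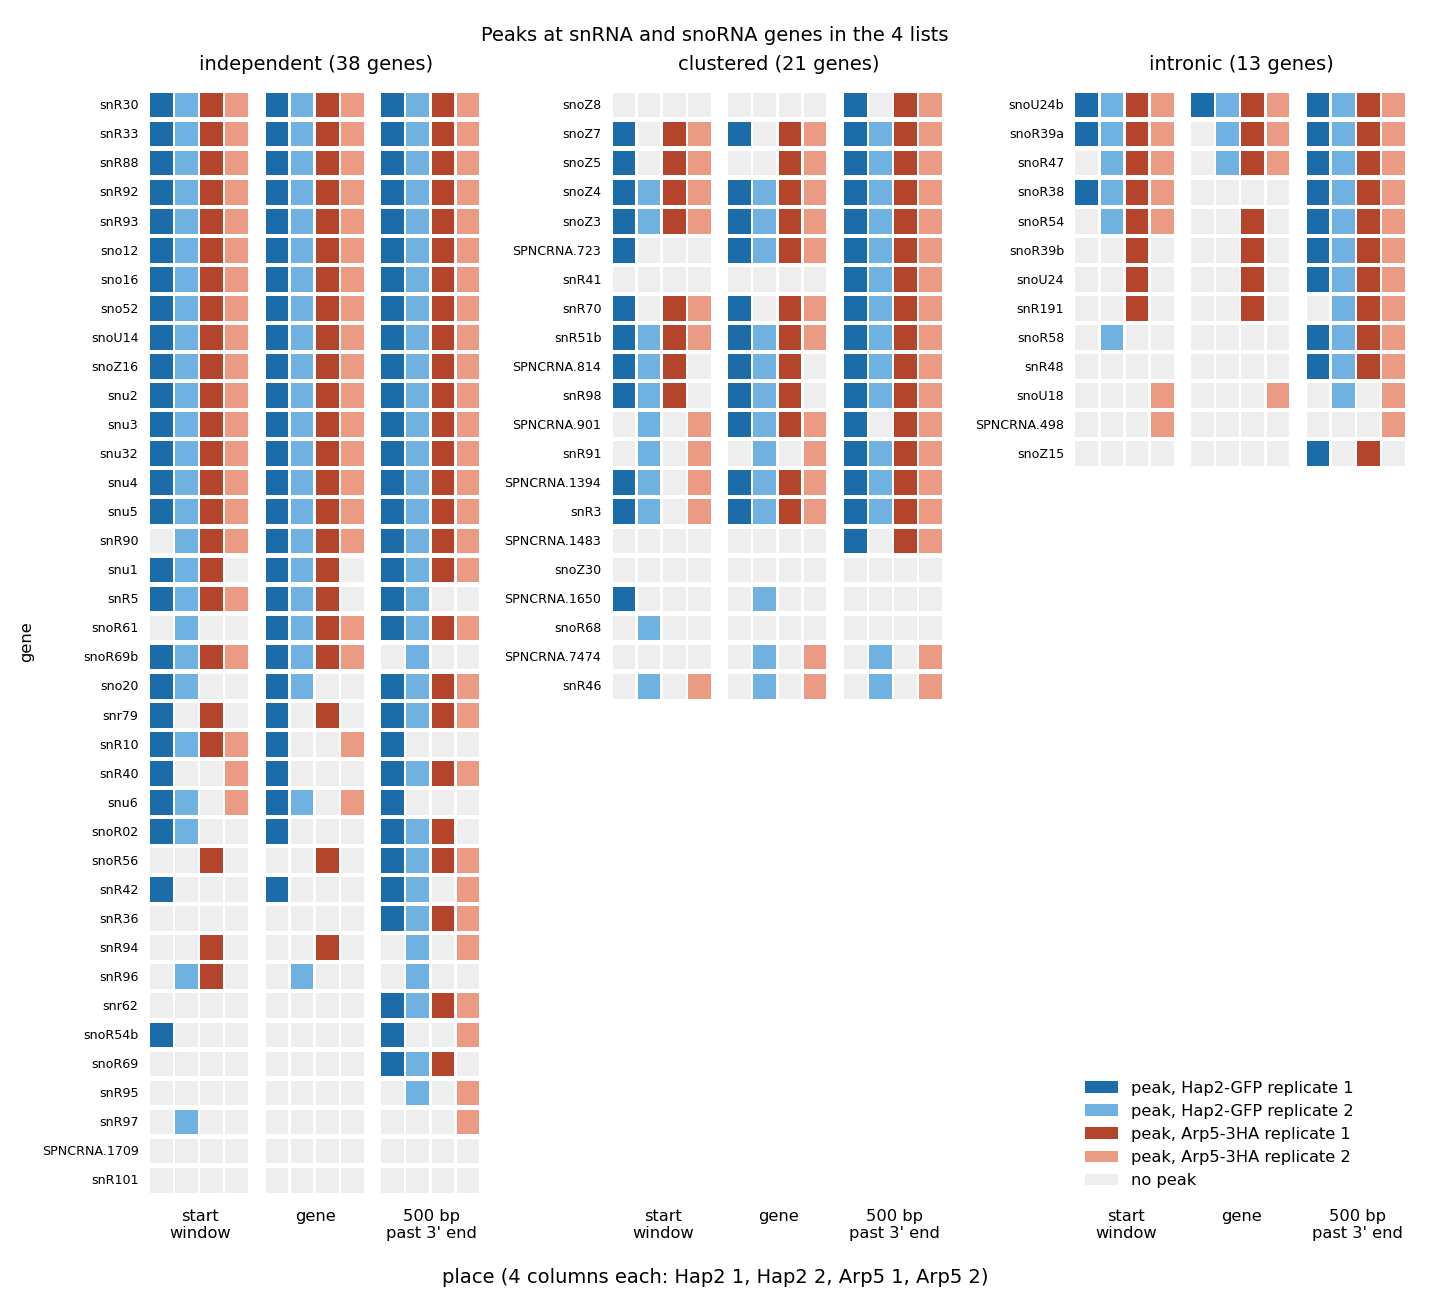
Presence of a peak (coloured) or none (grey) for each of the 72 genes (rows) in the 4 lists, in the start window, over the gene and in the 500 bp past the 3′ end, in 3 panels for independent, clustered and intronic genes. Independent and intronic genes are ordered by the number of coloured cells and clustered genes by position, and 46 genes are coloured in all 4 cells of the third block against 24 in the first.

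The 12 genes with no peak at the start or over the gene were *snoZ8*, *snR41*, *snR101*, *snr62*, *snoR69*, *snR95*, *SPNCRNA.1709*, *snoZ15*, *snR36*, *SPNCRNA.1483*, *snoZ30* and *snR48*. Past the end, all 4 lists had a peak at *snR41*, *snr62*, *snR36* and *snR48*, while none had 1 at *snR101*, *SPNCRNA.1709* and *snoZ30*. At *snr62*, a box C/D gene with no coding gene within 500 bp past its end, the peaks were 300 to 520 bp long, began 58 to 118 bp past the end and had percentiles of 67.6 to 83.8. For *snR101*, an H/ACA gene, the nearest peak of any list lay 1032 bp from the start.

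The HomolD box, known in *S. pombe* as the TATA-like element of ribosomal protein promoters, was looked for as CAGTCACA on either strand, from 250 bp before to 50 bp after each start. It was present at 15 of the 72 genes (20.8%), against 1.65% of all genes and 64.1% of 131 cytosolic ribosomal protein genes. *snR48* also has the start of its ribosomal protein host in its start window, and the pairs *SPNCRNA.723* and *snR41*, and *SPNCRNA.7474* and *snR46*, hold the same box. A second ribosomal protein element, ACCCTACCC on either strand, was found at 2 genes, *snu4* and *sno20* (2.78%, against 0.754% of all genes), and both also have CAGTCACA. Capitals mark these boxes in the 150 bases before the start of *snu4* (chrII:467616-467765, minus strand) and *sno20* (chrII:2411040-2411189, plus strand), where the reverse complement appears if the box is on the other strand.
snu4 upstream: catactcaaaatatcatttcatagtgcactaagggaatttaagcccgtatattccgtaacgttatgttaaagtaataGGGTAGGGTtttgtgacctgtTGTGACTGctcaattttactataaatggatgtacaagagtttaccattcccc
sno20 upstream: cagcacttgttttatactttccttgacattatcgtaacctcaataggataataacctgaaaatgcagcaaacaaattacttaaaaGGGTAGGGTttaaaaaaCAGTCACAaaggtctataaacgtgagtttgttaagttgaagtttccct
Of the 15 genes with CAGTCACA, 4 had a Hap2 start peak in both lists and 3 an Arp5 start peak in both, against 28 and 27 of the 57 without it. Start peaks were therefore not more frequent where this box was present. The letters TATAAA, on either strand, were found at 36 of the 72 genes, against 45.3% of all genes.

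Among genes for proteins that work with these RNAs, start peaks in both Hap2 lists were found at 2 of 9 genes for snoRNA particles, 1 of 7 Sm genes and 0 of 8 LSm genes, where 20.9% of all genes had them. The numbers for both Arp5 lists were 1, 1 and 0, where all genes gave 14.0%. These are all protein-coding genes, of which 18.6% had a start peak in both Hap2 lists and 5.73% in both Arp5 lists. The groups are too small to place against either share. Over the gene, both Hap2 lists had a peak at 4, 3 and 1 genes, where protein-coding genes gave 31.0%. Both Arp5 lists had a peak over 4, 2 and 0 genes, where protein-coding genes gave 38.1%. All listed symbols were matched. Of 9 genes for core proteins of snoRNA particles, *fib1* (fibrillarin, the methyltransferase of box C/D particles) had a start peak in all 4 lists and *gar1*, of box H/ACA particles, in all but Arp5 replicate 1. The other 7 had none in both lists of either protein. Of 7 Sm protein genes, whose products form the ring on snRNAs, *smd2* had all 4 lists and *smb1* only the lists with number 2. None of the 8 LSm genes had a start peak in both lists of a protein, and *lsm6*, in Hap2 replicate 1, was the only 1 with any. Among 4 other stable RNA genes, *srp7* (the RNA of the signal recognition particle) and *ter1* (telomerase RNA) had all 4 lists, *mrp1* had all but Arp5 replicate 1, and *rrk1* (the RNA of RNase P) had none at the start and all 4 over the gene.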

How the data were processed

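Peaks had been called by the authors for each ChIP sample. Per the submitters' processing notes, the tools were MACS2 2.1.2, BWA 0.7.17 and Trimmomatic 0.36, besides deepTools. The sources used here do not state thresholds, the genome build, the input for each list or how multiply aligned reads were handled. The deposited score is a whole number with no stated scale, so it was used as a percentile within its list. The lists hold no read counts, so depth is unknown and no precision could be given. Chromosome III of ASM294v3 ends at 2452883, where the last peak ends in each list. Peaks on other sequences (6, 8, 1 and 0) were left out.

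A peak counted as present where it overlapped a place by at least 1 bp. Box class came from the annotation or else from the sequence (CTGA within the last 15 bases or TGATGA within the first 20 for C/D, ACA 3 bases from the end for H/ACA). The genes named were the snRNA and U3 genes, the 10 others with start peaks in the most lists and then the highest lowest percentile, up to 10 genes with no peak, the clusters, and *snR48*; others were named after their values were seen. Members and lists were chosen with earlier results of these data known. Overlap calls were tested on simulated peaks. Python 3.11.15, Biopython 1.88 and matplotlib 3.10.9 were used. Whether replicates came from separate cultures is not given.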

Additional observations from a re-analysis of the deposited data

Results flagged for a closer look

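Hap2 and Arp5 calls moved in opposite directions between classes in 2 comparisons, and neither difference was tested. At the start, independent genes had 7 more calls in the 2 Hap2 lists than in the 2 Arp5 lists, with each Hap2 list above each Arp5 list, while intronic genes gave a difference of -6, with each Hap2 list below each Arp5 list. Over the gene, box C/D genes gave a difference of -10 and box H/ACA genes 5. The signs of the independent and intronic genes were also found in a background, while those of the 2 box classes were not found over all genes. Over all genes, Hap2 also exceeded Arp5 at the start (27.3 and 29.4% against 20.8 and 21.2%), and over the bodies of coding genes, which hold the intronic members, Arp5 exceeded Hap2 (48.5 and 49.6% against 39.9 and 44.4%). Over the gene, all genes gave 34.1 and 37.8% for Hap2 and 35.6 and 36.6% for Arp5, with no common sign. The intronic genes that were assigned a box class are all box C/D, and they are 10 of the 30 box C/D genes. These comparisons therefore overlap in part of their members.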

How the results depend on the processing

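Of the members, 44.4% had a Hap2 start peak in both lists and 41.7% an Arp5 start peak in both. With a peak in either list these became 72.2 and 68.1% (all genes 35.8 and 28.1%), and with the start base alone 29.2 and 26.4%. With the 500 bp past the 3′ end in place of the start window, chosen after seeing the data, both were 69.4% (all genes 19.5 and 14.4%). Over the gene, either list gave 66.7% for Arp5 (all genes 45.4%) and 63.9% for Hap2 (all genes 45.1%). Single lists (without replicate 1 or without replicate 2) gave 56.9 to 59.7% for Hap2 and 54.2 to 55.6% for Arp5 at the start, 54.2% for Hap2 and 51.4 to 58.3% for Arp5 over the gene, and 72.2 to 73.6% for peaks past the end in all lists used. Stricter overlap, the higher-scoring part of each list, other windows, 1 member per group of overlapping copies and members away from tRNA, rRNA and ribosomal protein genes kept every value within 1.5 times. Past the end, the 63.9% in all 4 lists ranged from 51.4 to 63.5% over these settings. Of all genes, 7.57% had a peak in all 4 lists within 250 bp past the end. With the higher-scoring part of each list, 6.92% of all genes had one within 500 bp. Clustering at 1000 bp left 21 clustered genes. No test was run, so no paired analysis was made. Whether lists with the same number are paired, by culture or by input, is not given in the sources used here. With no counts and no control list, the precision of a single call is unknown.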
